A study of Homo sapiens with 14 samples.

Results

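The aquaporins AQP1, AQP3, AQP4, AQP5, AQP7, AQP9 and AQP11 were examined on arrays of glioma cells before and after exposure to conditioned medium (CM) of mesenchymal stem cells (MSCs). A gene was represented by the transcript clusters (the array's probe groups for one transcribed locus) that carry its symbol and no other. Of the 7 genes, 5 had such a cluster, 1 each, among 22465 genes with a cluster of their own. AQP1 appeared only on a cluster shared by 4 gene symbols and AQP7 only on one shared by 2, so no level is given for either. AQP9 was selected on these log2 signals, for its fall after CM. Its levels with respect to gliospheres, and between the kinds of CM, are therefore a description with no test.

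All 14 arrays came from the U87MG ATCC-HTB14 glioblastoma line, a single established line. Gliospheres (3 arrays) are CD133+ cells sorted from it and grown as spheres in growth factor medium with EGF, bFGF, LIF, N2 and B27. Passage 13 gliospheres were kept for 7 days in CM of Wharton's jelly MSCs (WJT, 3 arrays) or of bone marrow MSCs (BMT, 3 arrays). The labels do not say which MSC sample was used for which array. The CM was sphere medium that had been on the MSCs, mixed with some fresh sphere medium. Negative spheres (2 arrays) are labelled as glioma cells in spheroids that are not stem cells, and the cell line (3 arrays) as cultured U87MG without treatment. The paper describes its negative population as the sorted fraction that failed to form spheres, and the line as a monolayer grown with serum. Gliospheres and these groups thus also differ in sorting or culture. Negative spheres and the cell line together served as the control group of 5 arrays.

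Aquaporins are membrane channels with several kinds of cargo. AQP1, AQP4 and AQP5 are classical water channels. AQP4 is the main water channel of astrocyte endfeet in the brain. AQP3, AQP7 and AQP9 are aquaglyceroporins, which pass glycerol as well as water, and AQP9 also passes urea, lactate and other small neutral solutes. AQP9 is best known from hepatocytes, where it takes up glycerol for gluconeogenesis, and from leukocytes. AQP11 is an unorthodox member found on intracellular membranes.

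Signals are log2 values, so a difference of 1 is a change of 2-fold. The background was taken as the 95th percentile of 364 olfactory receptor genes, a class that glioma cells are not known to use. As group means it was 3.83 in gliospheres, 3.74 in WJT, 3.85 in BMT, 3.80 in negative spheres and 4.26 in the cell line, where replicate 3 alone stood at 5.19 while no other array exceeded 3.96. Correlation between arrays of a group was 0.9643 to 0.9834 in gliospheres, at least 0.9903 in WJT and BMT, 0.9846 in negative spheres, and 0.9283 to 0.9612 in the cell line. Of the identity markers, the intermediate filament genes VIM (15.66 to 15.86) and NES (4.32 to 4.68) lay above background in all 5 groups. NES did so only just in gliospheres (4.34) and the cell line (4.32), below the 99th percentile of the olfactory receptor genes there (4.37 and 4.86). PROM1, which encodes the CD133 antigen used for sorting, lay at 3.45 to 3.59 and was not above background in any group, nor were the stem cell genes SOX2 (3.55 to 3.78) and MSI1 (3.62 to 3.74).

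The 250 bases before the first of the 2 AQP9 starts in RefSeq are printed because AQP9 was the member whose signal differed between groups. They lie at chr15:58137919-58138168 on the plus strand (RefSeq, GRCh38.p14), with the single CCAAT box, read on the opposite strand as ATTGG, in capitals.
AQP9: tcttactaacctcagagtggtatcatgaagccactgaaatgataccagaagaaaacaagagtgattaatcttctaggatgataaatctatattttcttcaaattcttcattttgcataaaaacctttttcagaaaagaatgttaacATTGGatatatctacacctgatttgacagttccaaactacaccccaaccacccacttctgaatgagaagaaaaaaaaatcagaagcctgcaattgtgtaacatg
The window is AT-rich, with 33.6% G and C against a median of 58% over 35116 windows of the same length, of which 3.94% were lower. CCAAT was found in 32% of those windows on either strand. TATAAA (in 10.7% of windows), GGGCGG (42.6%), TGANTCA (6.57%) and TTGCGNAA (0.752%) were searched on both strands, and these letters were absent here. The window of the second start, at chr15:58138131-58138380, overlaps the printed one, has 39.2% G and C and holds 0 matches to any of these motifs.

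AQP9 was the only one of the 5 aquaporins well above background. Its signal exceeded the 99th percentile of the olfactory receptor genes on 14 of 14 arrays. The gliosphere arrays read 10.57, 9.30 and 11.05, with a mean of 10.31 ± 0.91 (SD, n = 3). Replicates 1 and 3 are the highest arrays of the series, replicate 2 lies below a pair of cell line arrays, and the SD is the largest of the 5 groups.
The WJT arrays read 7.65, 7.42 and 8.44 (7.84 ± 0.54, SD, n = 3). The BMT arrays read 8.40, 8.002 and 7.18 (7.86 ± 0.62, SD, n = 3). All 6 arrays after CM lay below the 8 other arrays, as in 0.508% of all 67528 clusters, and WJT and BMT overlapped each other. Negative spheres read 8.82 and 9.12 (8.97 ± 0.21, SD, n = 2), and the cell line 8.91, 9.57 and 9.42 (9.30 ± 0.34, SD, n = 3). Both lay above the CM arrays and overlapped each other. Negative spheres lay below all gliosphere arrays, whereas the cell line overlapped the gliospheres.

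**Figure D1:**
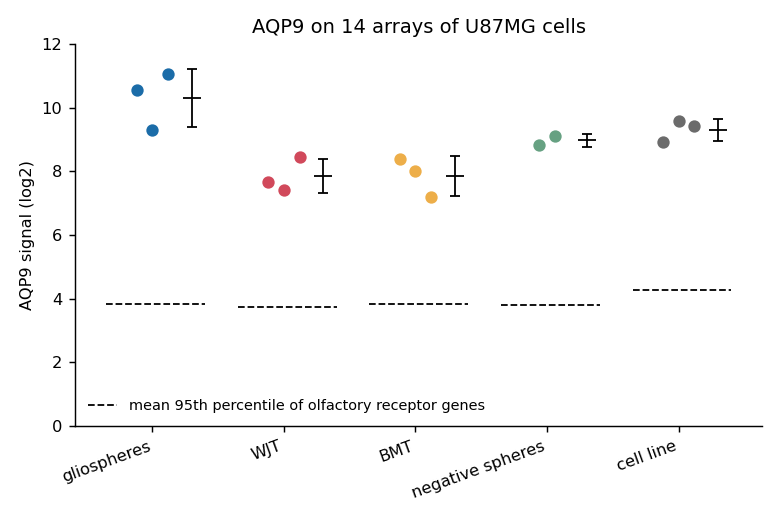
AQP9 log2 signal on each of the 14 arrays (points) by group, with the group mean and SD (bars) and the olfactory receptor background of each group (dashed lines). Gliospheres read 9.30 to 11.05, the 6 arrays after CM 7.18 to 8.44, and every array lies far above the background.

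The mean AQP9 signal was 5.53-fold lower in WJT than in gliospheres (log2 difference −2.47) and 5.45-fold lower in BMT (−2.45). Both differences use the same 3 gliosphere arrays, and each held in 9 of 9 pairs of arrays. The gap between the lowest gliosphere array and the highest treated array was 0.85 for WJT and 0.90 for BMT. Of all 67528 clusters, 8.43% had every WJT array below every gliosphere array, 7.33% every BMT array, and 3.74% both. Since AQP9 was picked for this fall, nothing is read from its place among them. Gliosphere replicate 3 correlated least with its group and carried the highest AQP9 value, and without it the differences were −2.09 for WJT and −2.07 for BMT.

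In the order of group means, gliospheres stood first, followed by the cell line, negative spheres, BMT and WJT. Gliospheres exceeded the cell line by 1.01 on the log2 scale (2.01-fold), but higher in only 7 of 9 pairs of arrays, so these neighbours overlapped. With 1 array left out this difference ran from 0.63 (without gliosphere replicate 3) to 1.51 (without gliosphere replicate 2). They exceeded negative spheres by 1.34 (2.52-fold) in 6 of 6 pairs, with a gap of 0.18, and 11.1% of clusters were separated in this way. Negative spheres and the cell line differed by −0.33 on the log2 scale (SE 0.50, 95% interval −1.44 to 0.78, limma adjusted p = 0.919), less than the spread of the arrays. BMT minus negative spheres was −1.11 (2.16-fold lower) and WJT minus negative spheres −1.13 (2.19-fold lower), with the CM array higher in 0 of 6 pairs. BMT minus the cell line was −1.44 (2.71-fold lower) and WJT minus the cell line −1.46 (2.75-fold lower), with the CM array higher in 0 of 9 pairs. In bulk RNA, fewer cells that use a gene and less RNA per cell cannot be told apart.

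AQP9 had similar means after either CM. WJT minus BMT was −0.02 on the log2 scale, and WJT was higher in 5 of 9 pairs of arrays. The choice of AQP9 used these same arrays, so neither a test nor an interval is given for this difference. With 1 array left out it ran from −0.36 to 0.25, so its sign is not settled.

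Most markers of the cell types best known for AQP9 were at or near background. Of 4 hepatocyte genes (ALB, APOA1, TTR and SERPINA1), 0 were above background in any group, with a summed linear signal of 42.1 to 49.7 over all arrays. Of 8 leukocyte genes, S100A9 was above background in all 5 groups (group means 4.22 to 4.55). CSF1R (4.14 to 4.27) was above it in all but the cell line, where replicate 3 raised the background. PTPRC, CD14, ITGAM, CSF3R, S100A8 and LYZ were not above it in any group. The summed leukocyte signal was 91.8 to 101 in gliospheres, 90.7 to 95 in WJT, 94.9 to 98.7 in BMT, 93.0 to 111 in negative spheres and 92.6 to 102 in the cell line. The part of such cells in the AQP9 values was not tested.

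AQP5, a water channel of secretory epithelia, was the only other member to rise above the background, and only just. Its arrays read 3.91, 3.93 and 3.99 in gliospheres (3.94 ± 0.04), 3.92, 3.86 and 4.01 in WJT (3.93 ± 0.07) and 4.002, 4.11 and 4.11 in BMT (4.08 ± 0.06). Negative spheres read 4.13 and 3.89 (4.01 ± 0.17), and the cell line 4.003, 4.13 and 4.08 (4.07 ± 0.06). It exceeded the 95th percentile of the olfactory receptor genes on 13 of 14 arrays, the exception being cell line replicate 3 with its raised background. It exceeded the 99th percentile on 0 arrays, so a level of AQP5 RNA in these cells cannot be told from background.

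The water channel AQP4, the aquaglyceroporin AQP3 and AQP11 lay below the background in all 5 groups and on every array. AQP3 spanned 3.22 to 3.56, AQP4 3.09 to 3.46 and AQP11 3.15 to 3.45 over the 14 arrays. AQP4 is abundant in astrocytes, and of the 6 astrocyte genes checked, GFAP, S100B, ALDH1L1 and SLC1A2 were likewise not above background. The glutamate transporter SLC1A3 was the exception, with group means of 6.07 in the cell line to 7.12 in WJT.

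The 4 dim genes did not pass the test in any comparison. Over 28 tests (4 genes in 7 comparisons, limma), 0 passed an adjusted p of 0.05 and 0 an unadjusted p of 0.05, with a smallest adjusted p of 0.561. The largest difference was 0.15 on the log2 scale, for AQP3 between BMT and gliospheres, and no 95% interval reached beyond 0.37 (1.29-fold). A gene at background can hide a change of its RNA, so these intervals describe the signal and not the transcript. For comparison, the share of all clusters that passed the adjusted p, and the share with an unadjusted p below 0.05, were 0% and 6.01% for WJT against gliospheres, and 0.00889% (6 clusters) and 8.47% for BMT against gliospheres. WJT against BMT gave 0% and 2.98%, and negative spheres against the cell line 0% and 6.7%. For gliospheres the shares were 0.569% (384 clusters) and 10.9% against control, 0.342% and 11.9% against the cell line, and 0.145% and 8.18% against negative spheres.

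**Figure D2:**
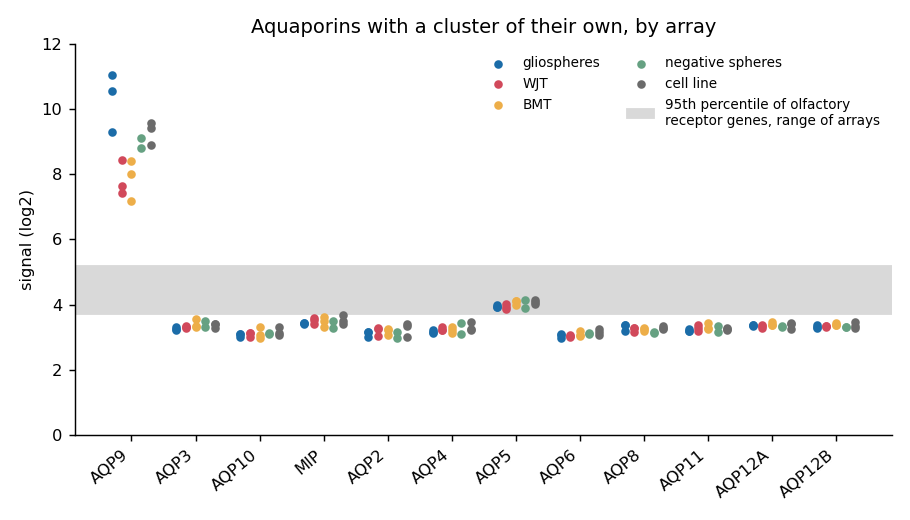
Log2 signals (vertical axis) of the 12 aquaporins with a cluster of their own on all 14 arrays, coloured by group, with a grey band for the range over arrays of the olfactory receptor background (3.71 to 5.19). AQP9 spans 7.18 to 11.05, AQP5 lies at 3.86 to 4.13 inside the band, and the other 10 lie below it.

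The rest of the family was also dim. MIP (the lens aquaporin), AQP2, AQP6, AQP8, AQP10, AQP12A and AQP12B each had a cluster, with signals of 2.98 to 3.67 over the arrays, and 0 of the 7 were above background. In all 7 comparisons, 0 of them passed an adjusted or an unadjusted p of 0.05 (limma). Their median log2 difference was 0.01 for WJT against gliospheres and 0.06 for BMT, beside −0.01 and 0.03 over all clusters. AQP12A and AQP12B are near-identical copies, and their probes may not tell them apart.

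The genes whose pattern over the 14 arrays was most like that of AQP9 were sought among 6429 genes with a mean signal of at least 5 and a range of at least 1. The 5 with the highest Pearson r were FAM86DP (Pearson r = 0.87, Spearman rho = 0.85), FAM86C1P (0.86 and 0.78), BMPER (0.85 and 0.82), NMNAT2 (0.84 and 0.88) and PPM1D (0.84 and 0.83). By Spearman's rho these genes ranked only 9.5, 41.5, 19.5, 6.5 and 15, so the choice of the 5 holds for Pearson's r. The points share arrays and groups, so these are descriptions of likeness only. FAM86DP and FAM86C1P are pseudogenes of one family that may share probes. BMPER binds bone morphogenetic proteins, NMNAT2 makes NAD in neurons, and PPM1D is a phosphatase that acts on the p53 pathway.
Without the cell line arrays r was 0.88, 0.91, 0.94, 0.84 and 0.86 in the same order, at ranks 13, 5, 3, 38 and 26. In all 5 genes, as in AQP9, gliosphere replicate 3 was the highest array and the lowest gliosphere array lay above the highest CM array. These genes were chosen for their likeness to AQP9 on the same arrays, so nothing is read from this shared order. Of all clusters, 3.74% had both CM groups below every gliosphere array. The steps were smaller than in AQP9. BMPER, for example, had group means of 6.54 ± 0.26 in gliospheres, 5.60 ± 0.22 in WJT, 5.78 ± 0.20 in BMT, 6.13 ± 0.47 in negative spheres and 6.16 ± 0.34 in the cell line. For AQP5 the most alike were MIR502 (r = 0.81), RNY4P7 (0.74) and MIR320E (0.72), a pattern over a span of only 0.27 on the log2 scale.

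**Figure D3:**
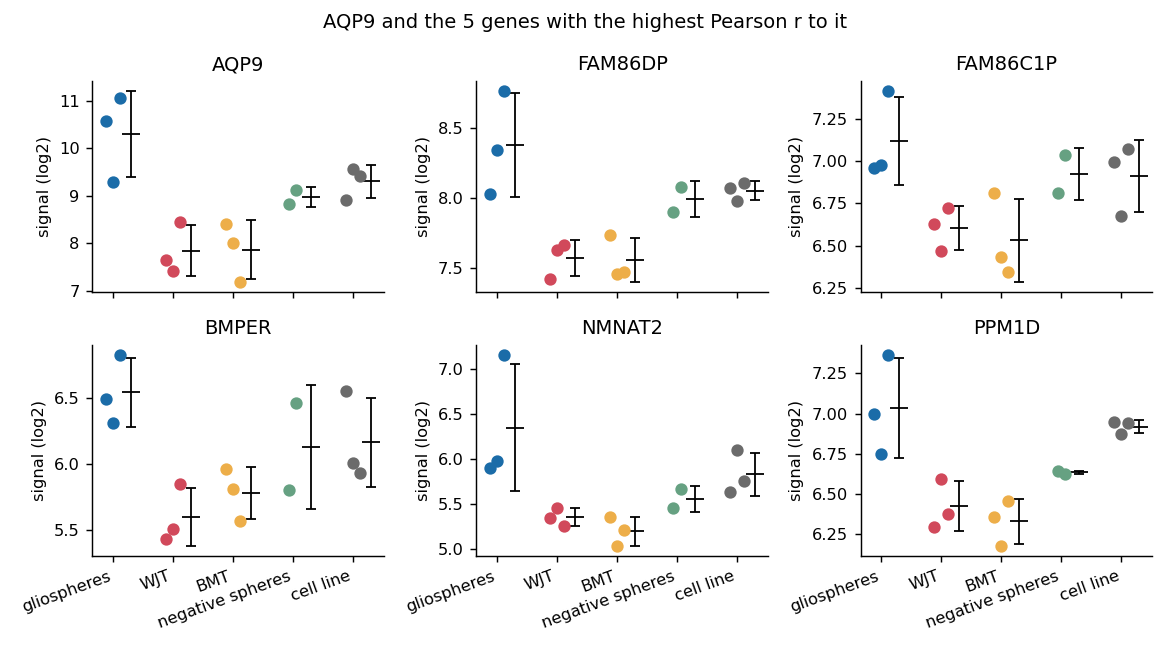
Log2 signals of AQP9 and the 5 genes with the highest Pearson r to it, on each of the 14 arrays (points) by group, with group means and SD (bars); the vertical axes differ between panels. In each gene gliosphere replicate 3 is the highest array and the 3 gliosphere arrays lie above the 6 arrays after CM. The 5 genes were chosen for their likeness to AQP9 on these arrays.

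Glycerol, which AQP9 carries, is phosphorylated and built into or released from triglycerides by a set of enzymes and lipid droplet proteins. Of 19 such genes 18 were measured and 16 lay above background in at least 1 group. Some did so only just, such as AGPAT2 (group means 3.95 to 4.04) and PLIN1 (3.73 to 3.88). In WJT against gliospheres 0 passed the adjusted p (limma), and likewise 0 in BMT. At an unadjusted p of 0.05 the list held 1 gene above and 3 below gliospheres, with equal counts for BMT. Of all clusters, 6.01% (WJT) and 8.47% (BMT) reached that p in either direction. The gene above gliospheres in BMT, GPD1, was not above background in any group. Gliospheres against control held 5 genes higher and 1 lower at that p, beside 10.9% of all clusters. The list's median difference was −0.01 in WJT and −0.09 in BMT, beside −0.01 and 0.03 over all clusters.
In gliospheres against control 1 gene passed as higher (0.429% of all clusters did), LPIN1, which encodes the phosphatidate phosphatase lipin that makes diacylglycerol. LPIN1 read 8.81, 8.44 and 7.65 in gliospheres, 6.48 and 6.46 in negative spheres, and 5.91, 6.02 and 5.95 in the cell line. It was 2.14 higher on the log2 scale in gliospheres than in control (SE 0.25, limma adjusted p = 0.0034), and the groups did not overlap, as in 2.46% of clusters. With only the 8 arrays compared in the fit, the adjusted p was 0.0774. After CM, LPIN1 read 7.58, 8.19 and 8.33 in WJT and 8.22, 7.91 and 8.05 in BMT, within the range of the gliosphere arrays apart from the lowest WJT array. Its difference was −0.27 in WJT (adjusted p = 0.995) and −0.24 in BMT (adjusted p = 0.856).
GPAM, the acyltransferase that starts glycerolipid synthesis on glycerol phosphate, read 7.26, 6.95 and 6.32 in gliospheres and 8.70, 8.16 and 7.15 in WJT. The difference of 1.16 did not pass the adjusted p (0.762), and the groups overlapped. GPAM was also at −1.18 in gliospheres minus control, with an adjusted p of 0.332.

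**Figure D4:**
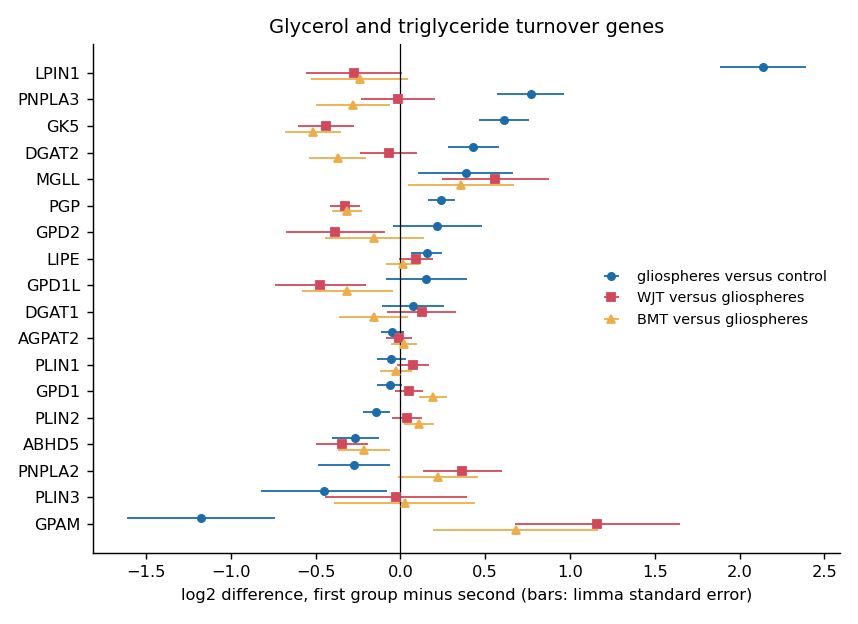
Log2 differences (horizontal axis, bars are limma standard errors) of the 18 measured genes of glycerol and triglyceride turnover in gliospheres against control (circles), WJT against gliospheres (squares) and BMT against gliospheres (triangles). LPIN1 stands at 2.14 against control and near 0 after CM (−0.27 and −0.24), and GPAM at −1.18 against control and 1.16 in WJT.

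Of 13 genes for lactate, monocarboxylate and urea transport 10 were measured and 6 lay above background in at least 1 group. None passed the adjusted p in any of the 7 comparisons with all arrays (limma). At an unadjusted p of 0.05 there were 0 in WJT and 1 lower in BMT against gliospheres, beside 6.01% and 8.47% of all clusters. The list's median difference was 0.003 in WJT and −0.04 in gliospheres against control, beside −0.01 and −0.07 over all clusters. The urea transporter SLC14A1 read 3.71, 3.72 and 4.25 in gliospheres against a control mean of 5.003 ± 0.73 (n = 5). The gliosphere arrays lay near their backgrounds of 3.71, 3.81 and 3.96. Cell line replicate 3 (4.03) lay below its own of 5.19, so the size of the difference is uncertain. The difference of −1.11 did not pass the adjusted p (0.203), but without cell line replicate 3, the array with the raised background, it was −1.35 and passed (limma adjusted p = 0.037).

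Of 18 genes of cell volume control and osmolyte uptake 14 were measured, and 12 lay above background in at least 1 group. In every comparison 0 passed the adjusted p. The taurine transporter SLC6A6 read 6.41, 6.50 and 7.38 in gliospheres and 7.21, 8.27 and 8.02 in WJT, a difference of 1.07 (limma adjusted p = 0.689). At an unadjusted p of 0.05 it was the 1 gene of the list in WJT, with 0 in BMT, beside 6.01% and 8.47% of all clusters. The list's median difference was 0.10 in WJT, 0.02 in BMT and 0.13 in gliospheres against control, beside −0.01, 0.03 and −0.07 over all clusters. The kinase WNK1, which acts on cation chloride cotransporters, was 1.07 higher in gliospheres than in control (adjusted p = 0.422).

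Of 13 genes that anchor AQP4 or belong to the astrocyte endfoot 10 were measured. Of these, 7 lay above background in at least 1 group, although AQP4 did not. None passed the adjusted p in any comparison (limma). At an unadjusted p of 0.05 the list held 1 gene above and 1 below gliospheres in WJT and 1 below in BMT. Of all clusters, 6.01% (WJT) and 8.47% (BMT) reached that p. The list's median difference was 0.05 in WJT and 0.11 in BMT, beside −0.01 and 0.03 over all clusters. The gap junction gene GJA1 read 12.85, 12.89 and 11.92 in gliospheres and 13.90, 13.94 and 13.46 in WJT, without overlap (so did 7.15% of clusters in that direction), and the difference of 1.21 did not pass (adjusted p = 0.828). The syntrophin SNTB2 was 1.14 higher in gliospheres than in control (adjusted p = 0.144). SNTB2 was also the gene below gliospheres after each CM, by −0.77 in WJT (adjusted p = 0.799) and −0.99 in BMT (adjusted p = 0.450). The dystrophin relative UTRN was 1.20 higher in negative spheres than in the cell line (adjusted p = 0.649).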

How the data were processed

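RNA was hybridised to Human Transcriptome Array 2.0 arrays. The authors made the deposited log2 values in the Transcriptome Analysis Console with its SST-RMA method, which corrects background, normalizes and summarises per cluster, and they were used unchanged. Arrays have no read depth, and their number limits the precision. Of 70523 features, 2995 probe sets that are no transcript cluster were left out. The platform annotation gives 1 symbol to 23781 clusters, several to 1543 and none to 42204.

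All 67528 clusters were fitted with limma 3.58.1 (lmFit, eBayes) in R 4.3.3 over all 14 arrays, with Benjamini-Hochberg adjustment over all clusters. A fit of 4 groups gave the comparisons of WJT, BMT, gliospheres and control, and one of 5 groups those that separate negative spheres and cell line. The fit of 4 groups was tested on simulated data for WJT against gliospheres only, and the fit of 5 groups was not. Labels number the arrays of a group as replicates, called biological for all but the cell line, without naming cultures, so p-values measure the spread between these samples, which may be technical.

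The members and gene lists were chosen with earlier results of these data known. Named were the members, the 5 genes closest to AQP9 and the 3 closest to another member above background, list genes past the adjusted p in a comparison, or otherwise up to 2 past an unadjusted p of 0.05 and a 2-fold change, and the identity markers. Promoters came from RefSeq and matched 6 of 7 members. The planned protein comparison was not made. Alternatives were other group sets, quantile normalization, median centring, array weights, a filter on dim clusters, a replicate block, other background levels and leaving out each array.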

Additional observations from a re-analysis of the deposited data

How the results depend on the processing

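The count of tested aquaporins that passed was 0 in every comparison under every alternative run. The AQP9 differences from gliospheres kept their sign throughout, from −2.97 to −2.09 for WJT and −2.95 to −2.07 for BMT with 1 array left out. The small AQP9 difference of WJT and BMT changed sign with median centring (0.037) and ranged from −0.36 to 0.25 with 1 array left out. With the 99th percentile of olfactory receptor genes as background, 1 member (AQP9) in place of 2 was above it. Without gliosphere replicate 3 and cell line replicate 3 together, an alternative chosen after seeing the data, the AQP9 differences were −2.09 and −2.07.

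Counts over all clusters moved more. For WJT against gliospheres they ran from 0 to 174 (with array weights), for BMT from 0 to 115 (without gliosphere replicate 1), for negative spheres against the cell line from 0 to 198 (without cell line replicate 1), and for WJT against BMT from 0 to 1. For gliospheres they ran from 24 (only the arrays compared) to 682 (without cell line replicate 3) against control, from 0 to 641 against the cell line, and from 1 to 310 against negative spheres. LPIN1 passed in 25 of 26 alternatives against control, 22 of 23 against the cell line and 9 of 23 against negative spheres. Other list genes passed only under some alternatives. PNPLA3 was higher in gliospheres than in control (adjusted p = 0.025) and the cell line (0.031) without gliosphere replicate 3, and GK5 higher than in control without gliosphere replicate 1 (0.024). SLC14A1 was lower than in control with array weights (0.043) and without cell line replicate 3 (0.037), and then also lower than in the cell line (0.021). PNPLA3 and SLC14A1 also passed in both comparisons without gliosphere replicate 3 and cell line replicate 3 together.

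The labels do not say whether arrays with the same replicate number belong together. Deviations from the group mean of same-numbered arrays correlated at −0.30 to 0.40, with 11 of 26 pairs over 0.1. Pairs with other numbers correlated at −0.38 to 0.24, with 11 of 52 over 0.1. Still, 14 of 14 arrays correlated best with an array of their own number, a hint from the data. Deviations within a group depend on each other, so these matches are not independent. With the replicate block, 0 of the tested aquaporins passed. AQP9, which was not tested against gliospheres, differed from them by −2.47 in WJT and −2.45 in BMT. Of all clusters, 0 passed for WJT and 5 for BMT against gliospheres. For gliospheres 287 passed against control, 119 against the cell line and 52 against negative spheres. Averaging several clusters per gene was not run, since each member has 1. A signal at background sets a limit to what the 4 dim aquaporins can show.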

Other observations

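The pseudogene AQP7P3, a near copy of AQP7, has a cluster of its own that lay above background on 12 of 14 arrays. Its group means were 4.49 ± 0.15 in gliospheres (n = 3), 4.23 ± 0.05 in WJT (n = 3), 4.27 ± 0.10 in BMT (n = 3), 3.76 ± 0.15 in negative spheres (n = 2) and 4.39 ± 0.50 in the cell line (n = 3). AQP7P1 lay above background on 7 of 14 arrays, and AQP4-AS1, the antisense gene of AQP4, on 0. Probes of near copies may bind each other's RNA, so the source of this signal cannot be told apart.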
